A study of Mus musculus with 58 samples.

Results

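The genes described here are the sensors, transcription factors and stress-induced targets of the unfolded protein response. The 10 members were taken by symbol from a table of 18088 mouse genes: Ern1, Eif2ak3, Atf6, Xbp1, Atf4, Ddit3, Trib3, Creld2, Sdf2l1 and Cebpb. All 10 were found, and all 10 passed the filter on low values (10 or more normalized reads in 4 or more libraries), which 17925 genes passed. Their RNA was measured by sequencing in the prefrontal cortex of 58 C57BL/6J mice aged 25 days, 1 library per mouse. The mice were labelled heterozygous (HT) or wild type (WT) for Tanc2, a synaptic scaffold gene. Pups took in fluoxetine (a serotonin reuptake inhibitor), lithium (a mood stabiliser) or vehicle with the milk of their dams between days 3 and 24 after birth. The arms were HT fluoxetine (10 mice), HT lithium (9 mice), HT vehicle (10 mice), WT fluoxetine (10 mice), WT lithium (10 mice) and WT vehicle (9 mice). Each held 5 females and 5 males, except HT lithium and WT vehicle with 4 males each. The altered part of Tanc2, the dose, the vehicle and the litters are not given in the sources used here, so that the p-values treat pups as independent.

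When unfolded proteins build up in the endoplasmic reticulum, the chaperone Hspa5 leaves the sensors in its membrane and frees them to signal. Ern1 encodes IRE1, an RNase that cuts a short intron out of Xbp1 mRNA in the cytosol; the spliced mRNA encodes the active factor. Eif2ak3 encodes PERK, a kinase that slows translation while the mRNA of Atf4 is translated more, and Atf6 is carried to the Golgi, where proteases release its active part. The factors made this way switch on chaperones, degradation genes and, downstream of Atf4, Ddit3 (CHOP) and Trib3. Much of this happens after transcription, and gene-level reads do not show splicing of Xbp1, cleavage of Atf6 or phosphorylation. In brain the pathway serves the large secretory and membrane protein load of neurons and glia.

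The sequence that IRE1 cuts is shown because a gene-level value adds reads with and without it. GENCODE transcripts of Xbp1 on GRCm38 chromosome 11 hold it in 3 of 4 cases, at bases 815 to 840 of Xbp1-201, in the coding sequence; capitals mark the 26 bases removed.
Xbp1 intron: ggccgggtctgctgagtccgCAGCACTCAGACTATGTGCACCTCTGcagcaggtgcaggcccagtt

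Another sequence at issue is the endoplasmic reticulum stress element (ERSE), read here as CCAAT and CCACG with 9 bases between them, to which ATF6 and XBP1 bind together with NF-Y. The RefSeq promoter table (GRCm38.p6, from 250 bases before to 50 after a start site) held 9 members and not Atf6. An ERSE, searched on both strands, lay in 1 of these 9 promoters, that of Creld2, against 0.119% of all 32851 windows. The bases before its start site follow, at chr15:88819396-88819645 on the + strand, with the ERSE, which reads on the opposite strand from position -126 to -108, in capitals.
Creld2 promoter: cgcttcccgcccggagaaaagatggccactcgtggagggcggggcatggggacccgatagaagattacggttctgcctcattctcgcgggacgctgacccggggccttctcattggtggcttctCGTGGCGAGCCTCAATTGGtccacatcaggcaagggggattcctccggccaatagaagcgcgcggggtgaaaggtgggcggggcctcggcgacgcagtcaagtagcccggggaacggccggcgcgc
Other motifs searched on both strands were absent from the 9 windows: ERSE-II (ATTGG and CCACG with 1 base between them), the UPRE core TGACGTGG, the amino acid response element TGATGCAA and the cyclic AMP element TGACGTCA, which lay in 0.0365%, 0.676%, 0.895% and 1.79% of all windows. The bare CCAAT box, also part of the ERSE, was found in Eif2ak3, Atf4, Ddit3, Creld2 and Sdf2l1 and in 37.4% of all windows. A match of letters is a description and not a bound site.

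On GRCm38 in the GENCODE vM21 annotation, the 3 sensors lie at chr11:106394650-106487852 (Ern1, ENSMUSG00000020715, - strand), chr6:70844515-70905245 (Eif2ak3, ENSMUSG00000031668, + strand) and chr1:170704674-170867771 (Atf6, ENSMUSG00000026663, - strand). The factors and the pseudokinase lie at chr11:5520659-5525893 (Xbp1, ENSMUSG00000020484, + strand), chr15:80255184-80257541 (Atf4, ENSMUSG00000042406, + strand), chr10:127290774-127296288 (Ddit3, ENSMUSG00000025408, + strand), chr2:167688915-167690418 (Cebpb, ENSMUSG00000056501, + strand) and chr2:152337422-152344032 (Trib3, ENSMUSG00000032715, - strand). The 2 endoplasmic reticulum proteins lie at chr15:88819646-88826683 (Creld2, ENSMUSG00000023272, + strand) and chr16:17130138-17132383 (Sdf2l1, ENSMUSG00000022769, - strand). All 10 genes code for protein, and a value counts reads over the whole gene.

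Levels are in normalized reads, a library's reads over its size factor, and between genes they are compared per kilobase of exon. Atf4 stood highest with a median of 1219 normalized reads per kilobase over the 58 libraries. This was above 94.6% of the 18077 genes with an annotated length. Xbp1 followed with 593.4 and Atf6 with 326.8. Sdf2l1 (244.1), Creld2 (212.9), Ddit3 (191.1) and Eif2ak3 (145.3) formed the middle of the order. Cebpb (50) and Ern1 (44.4) were lower, and Trib3 was scarce at 3.4, with between 0 and 20.1 normalized reads per library. Spread within the 12 groups of arm and sex was smallest for Eif2ak3 (coefficient of variation 6.71%) and Xbp1 (7.16%) and largest for Trib3 (52.2%) and Cebpb (17.7%). Over the 58 libraries the ranges per kilobase of neighbours in this order overlapped from Atf6 through to Eif2ak3 and again between Cebpb and Ern1, while Atf4, Xbp1 and Trib3 stood clear of their neighbours.

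Recovered reads ran from 23270000 to 37800000 per library, with a median of 27910000. Markers of cortical excitatory neurons, interneurons, oligodendrocytes, astrocytes, microglia and vessels were present in every arm, with no marker at 0 in all libraries; in bulk tissue, fewer cells of a type and less RNA per cell cannot be told apart. Striatal markers summed to at most 8204 normalized reads in vehicle mice, but reached 12241 in an HT fluoxetine library, 20541 in an HT lithium library and 20330 in a WT lithium library. Tanc2 was not lower in HT-labelled mice (8093 ± 381 normalized reads, SD, n = 10, against 7541 ± 387, n = 9, in WT-labelled vehicle mice), so it does not check the genotype labels. A feature of the libraries follows the drugs. Reads of the pseudogene Gm10221 occurred in 27 libraries: all 19 lithium libraries, 5 of 5 HT fluoxetine females and 3 of 5 WT fluoxetine females, and in no vehicle library or fluoxetine male. The mitochondrial transcript mt-Atp6 had a median of 49943 normalized reads in these 27 libraries and 22888 in the other 31. Lithium against vehicle cannot be told apart from this feature, and for fluoxetine the males give values without it. One library, HT lithium female 4, stood apart in that long transcripts were low in it (a slope of -0.50 in log2 value per 10-fold transcript length, against -0.17 to 0.26 in the others). The HT lithium against vehicle values of Cebpb, Ern1 and Atf4 and the HT lithium against fluoxetine value of Atf6 are also given without it. Counts over lists of other genes were not recomputed without it, nor was it singled out in the relations between members.

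**Figure D1:**
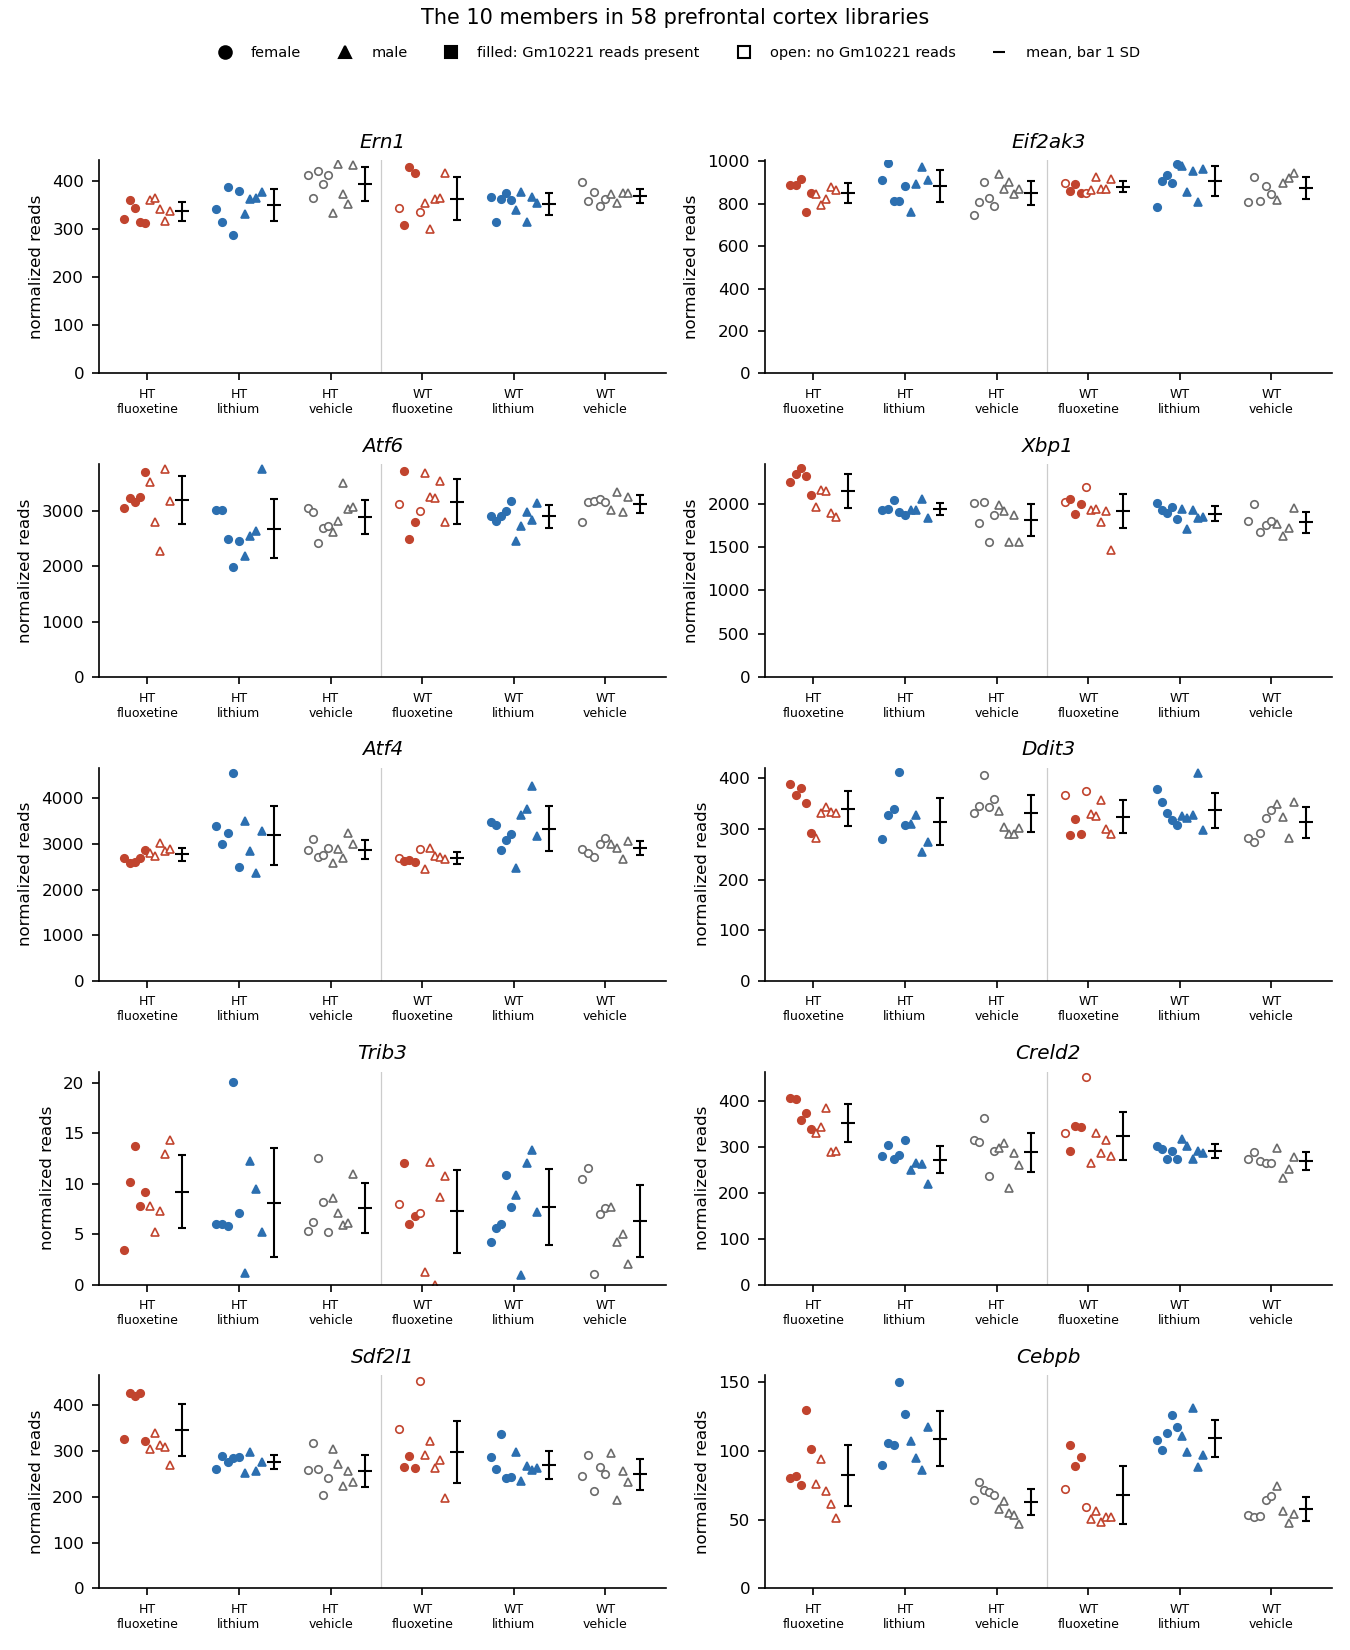
Normalized reads of the 10 members in each of 58 libraries, by arm (HT fluoxetine, HT lithium, HT vehicle, then the WT arms), with circles for females, triangles for males and filled symbols for libraries with Gm10221 reads. Bars give the mean and 1 SD of an arm. Of the 10 members only Cebpb shows lithium arms that lie wholly above the vehicle arms, which was not counted over all genes.

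The first question was what early fluoxetine did to these genes in HT-labelled mice. Xbp1, Creld2 and Sdf2l1, which belong to the arm that expands folding capacity, rose 1.18-fold to 1.34-fold, Cebpb rose 1.28-fold and Ern1, the sensor that splices Xbp1, fell. Eif2ak3, Atf6, Atf4, Ddit3 and Trib3 did not pass. Thus 5 of 10 members passed (limma, Benjamini-Hochberg adjusted p under 0.05), 4 higher and 1 lower, where 3.54% of all genes tested passed (1.46% higher and 2.09% lower). The median over the 10 members was 0.17 on the log2 scale, against 0.0031 over all genes.

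Ern1 encodes the IRE1 kinase and RNase. It had between 313.9 and 364.3 normalized reads in HT fluoxetine mice (median 340.2), against 334 to 436.5 in HT vehicle mice (median 404.3). All 10 treated mice lay below the mean of the vehicle mice of their sex, and 8 of 10 vehicle mice lay above the highest treated mouse. The log2 difference was -0.22 ± 0.06 (SE; limma adjusted p = 0.0203). Without HT vehicle male 2 or male 5 the difference was -0.20 and the call was lost (limma adjusted p = 0.0546 and 0.0587). In WT-labelled mice Ern1 had 301 to 430.7 normalized reads under fluoxetine (median 359.1) and 349.1 to 398 under vehicle (median 373), a difference of -0.03 ± 0.06 (limma adjusted p = 0.931). The difference between the genotypes in this effect was -0.19 ± 0.08 and did not pass (limma adjusted p = 0.792).

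Xbp1, the factor that IRE1 activates, had 1853 to 2413 normalized reads in HT fluoxetine mice (median 2158), against 1554 to 2016 in HT vehicle mice (median 1871). Its 10 treated mice all exceeded the vehicle mean of their sex, and 7 of them exceeded every vehicle mouse. The log2 difference was 0.24 ± 0.05, or 1.18-fold (limma adjusted p = 0.00131), and it passed with each library left out in turn. In WT-labelled mice the ranges were 1464 to 2196 under fluoxetine (median 1935) and 1632 to 2001 under vehicle (median 1771). That difference, 0.10 ± 0.05, did not pass (limma adjusted p = 0.472), nor did the difference between the genotypes, 0.14 ± 0.07 (limma adjusted p = 0.792).

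Creld2, a disulfide isomerase-like protein of the endoplasmic reticulum that is partly secreted, was the only member called in both genotypes. It had 288.8 to 406.4 normalized reads in HT fluoxetine mice (median 351), against 210.6 to 361.5 in HT vehicle mice (median 294.5), a log2 difference of 0.29 ± 0.07 (limma adjusted p = 0.00613). In WT fluoxetine mice it had 265.1 to 451.7 normalized reads (median 322.2), against 233 to 296.4 in WT vehicle mice (median 269.8), a log2 difference of 0.26 ± 0.07 (limma adjusted p = 0.0393). Each of the 10 treated mice of either genotype exceeded the vehicle mean of its sex, though the ranges overlapped. Creld2 was thus the 1 member of 10 that passed in WT-labelled mice, where 1.38% of all genes did (0.469% higher and 0.915% lower). That WT call passed in 8 of 19 fits with 1 library left out; the differences ranged from 0.21 to 0.29 and the limma adjusted p reached 0.129, without WT vehicle male 2.

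Sdf2l1 encodes a partner of endoplasmic reticulum DnaJ co-chaperones and had the largest log2 difference of the 10 members in this comparison. It had 269.8 to 427.2 normalized reads in HT fluoxetine mice (median 323.7), against 204.5 to 318.5 in HT vehicle mice (median 257.3). All 10 treated mice were above the vehicle mean of their sex and 6 above every vehicle mouse. The log2 difference was 0.42 ± 0.09, or 1.34-fold (limma adjusted p = 0.00295). Females alone gave 0.58 and males 0.26, and the difference between the sexes, 0.33 ± 0.18, did not pass (limma adjusted p = 0.9997). In WT-labelled mice it had 196.4 to 452.5 normalized reads under fluoxetine (median 284.6) and 193.6 to 296.4 under vehicle (median 250.3), a difference of 0.23 ± 0.09 that did not pass (limma adjusted p = 0.267).

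**Figure D2:**
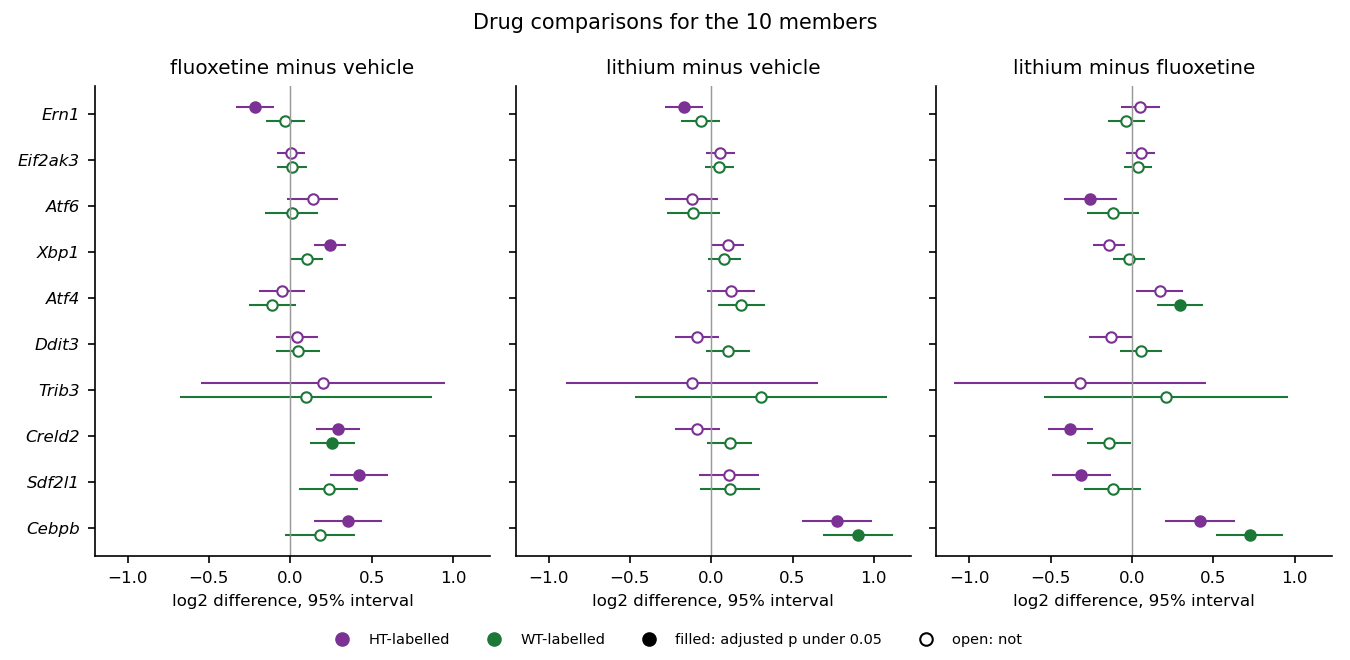
Log2 differences of the 10 members with 95% intervals for fluoxetine minus vehicle, lithium minus vehicle and lithium minus fluoxetine, with HT-labelled values above WT-labelled ones for each gene; filled points have a limma adjusted p under 0.05. Cebpb lies at 0.77 and 0.90 for lithium, and Xbp1, Creld2 and Sdf2l1 lie above 0 for fluoxetine in both genotypes.

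Cebpb, a bZIP factor induced by stress of the endoplasmic reticulum and in inflammation, had 51.1 to 130 normalized reads in HT fluoxetine mice (median 77.9), against 47 to 77.3 in HT vehicle mice (median 63.8). The log2 difference was 0.35 ± 0.10 (limma adjusted p = 0.0423), and 9 of 10 treated mice exceeded the vehicle mean of their sex. It passed in 8 of 20 fits with 1 library left out, with differences from 0.29 to 0.41 and a limma adjusted p of up to 0.116, without HT fluoxetine female 4. Once each library's dependence on the length and GC of transcripts was taken out it was 0.26 ± 0.09 (adjusted p = 0.0943). In WT-labelled mice Cebpb had 48.1 to 104.3 normalized reads under fluoxetine (median 57.7) and 47.8 to 74.4 under vehicle (median 54.3), a difference of 0.18 ± 0.11 (limma adjusted p = 0.605).

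Levels of markers of other cell types stand beside these values in the same mice. Of 6 endothelial markers 1 passed, Kdr at 0.34 ± 0.09, and the summed level was 5354 to 8262 normalized reads in HT fluoxetine mice and 4949 to 6612 in HT vehicle mice. Of 6 microglial markers none passed and all 6 point values were above 0, with sums of 6369 to 8574 and 5959 to 6924. Of 7 markers of myelinating oligodendrocytes none passed and 6 point values were above 0, with sums of 60328 to 207961 (median 141492) in HT fluoxetine mice and 69141 to 142097 (median 116940) in HT vehicle mice. Of 5 red blood cell markers none passed and all 5 point values were below 0, with sums of 7147 to 16575 (median 9349) and 8116 to 21703 (median 14162). No marker of these 4 lists was at 0 in all libraries, and their part in the values of the members was not tested.

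The 8 fluoxetine libraries with Gm10221 reads were all female, and their part in these values was not tested. In HT-labelled males, whose libraries have no such reads, the log2 differences were 0.18 for Xbp1, 0.27 for Creld2, 0.26 for Sdf2l1, 0.33 for Cebpb and -0.16 for Ern1; none of these passed with 5 mice a group (the smallest limma adjusted p was 0.523). In HT-labelled females, also 5 a group and all with the reads when treated, they were 0.31, 0.32, 0.58, 0.38 and -0.28, and Xbp1, Sdf2l1 and Ern1 passed in the fit to all mice (limma adjusted p = 0.00567, 0.00486 and 0.0487), of which Xbp1 and Sdf2l1 passed in a fit to females alone (adjusted p = 0.00583 and 0.0193). Only among WT fluoxetine females did the reads vary within a group of arm and sex. A further fit had a term for Gm10221 reads and sex as an additive term in place of the 12 groups. This fit therefore assumed that sex acts alike in every arm, also for the HT-labelled mice. In it Sdf2l1 passed (0.42, limma adjusted p = 0.0271), while Creld2 (0.29, adjusted p = 0.0545), Xbp1 (0.20, adjusted p = 0.0565), Ern1 (-0.23, adjusted p = 0.0644) and Cebpb (0.14, adjusted p = 0.565) did not. With additive sex and no term for the reads, Xbp1, Creld2, Sdf2l1 and Ern1 passed and Cebpb did not (0.35, limma adjusted p = 0.0575). Of the 5, Cebpb is the member whose value changed by over 1.5 times with the term. Among WT fluoxetine females, Sdf2l1 had 262.9 to 289.5 normalized reads in the 3 libraries with Gm10221 reads and 348.2 and 452.5 in the 2 without.

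Among the sensors, Eif2ak3 passed in no comparison. Its medians lay between 856.9 and 920.9 normalized reads in the 6 arms, and its fluoxetine differences were 0.0025 ± 0.04 in HT-labelled and 0.01 ± 0.04 in WT-labelled mice. The 95% intervals, -0.08 to 0.09 and -0.08 to 0.10, bound the change of its mRNA on the log2 scale. Atf6 had 2272 to 3751 normalized reads in HT fluoxetine mice (median 3198) and 2413 to 3494 in HT vehicle mice (median 2899), a difference of 0.14 ± 0.08 (limma adjusted p = 0.381).

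Atf4, Ddit3 and Trib3, the members of the PERK branch downstream of the sensor, did not pass for fluoxetine in either genotype. Atf4 had 2579 to 3025 normalized reads in HT fluoxetine mice (median 2777), against 2573 to 3241 in HT vehicle mice (median 2876), a log2 difference of -0.05 ± 0.07. In WT fluoxetine mice all 10 values lay below the vehicle mean of their sex (medians 2680 and 2910), and the difference of -0.11 ± 0.07 did not pass (limma adjusted p = 0.664). Ddit3, the pro-apoptotic factor CHOP, had medians between 308.9 and 339.1 normalized reads in the 6 arms and passed in no comparison. Trib3, a pseudokinase induced by Atf4 and CHOP, had too few reads for a small change to be seen, with 95% intervals of -0.55 to 0.95 in HT-labelled and -0.68 to 0.87 in WT-labelled mice for fluoxetine.

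The lists of other pathway genes were chosen with earlier results of these data known. Of 20 chaperones and folding enzymes of the endoplasmic reticulum, 8 rose and 0 fell with fluoxetine in HT-labelled mice, with a median of 0.12. Manf rose by 0.28 ± 0.04, the disulfide isomerase Pdia3 by 0.20 ± 0.03, the main chaperone Hspa5 by 0.35 ± 0.06 and the co-chaperone Dnajc3 by 0.20 ± 0.03. Of 20 genes of degradation and translocation, 2 rose, the translocon subunit Sec62 by 0.13 ± 0.03 and Derl3 by 0.46 ± 0.13. Of 25 targets of Atf4 and CHOP, 0 rose and 2 fell, Ddit4 by 0.64 ± 0.09 and Atf3 by 1.12 ± 0.33. Of 11 immediate early genes, 8 fell in the same mice, and their relation to Ddit4 and Atf3 was not tested. Of 12 tRNA synthetases none passed. In WT-labelled mice 1 of the 20 chaperones rose, Dnajb11 by 0.13 ± 0.03, and 1 of the 25 targets fell, Ddit4 by 0.33 ± 0.09. Over all genes, 1.46% rose and 2.09% fell in HT-labelled mice, and 0.469% rose and 0.915% fell in WT-labelled mice.

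Genes that share the promoter element of Creld2 were looked at next. An ERSE lay in the windows of 37 named genes, of which 20 were matched by symbol and past the filter. Ero1lb, which the promoter table names Ero1b, also holds an ERSE but was not matched, so it is not among the 20. Ero1lb did not pass for fluoxetine in either genotype. In HT-labelled mice 6 of these 20 rose and 0 fell with fluoxetine, where 1.46% of all genes rose; the median of the 20 was 0.12. The 6 sites follow, read with CCAAT first and with both CCAAT and CCACG in capitals. The capitals are the same in each because they were searched for, and the bases between them differ.
Creld2: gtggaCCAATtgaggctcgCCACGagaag
Hspa5: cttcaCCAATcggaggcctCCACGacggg
Pdia6: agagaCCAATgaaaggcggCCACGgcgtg
Dnajc3: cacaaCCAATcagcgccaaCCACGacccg
Derl3: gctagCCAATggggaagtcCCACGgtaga
Hsp90b1: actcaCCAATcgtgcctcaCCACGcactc
On GRCm38.p6 they lie at chr15:88819515-88819543, chr2:34772020-34772048, chr12:17266486-17266514, chr14:118937822-118937850, chr10:75893237-75893265 and chr10:86705528-86705556. The Hsp90b1 gene is on the - strand and the others are on the + strand, and Hsp90b1 holds a second such site. The site of Creld2 also lies in the window of Alg12, a mannosyltransferase gene read the other way, which differed by -0.0032 ± 0.05 (limma adjusted p = 0.985). Besides the values given above, Pdia6, a disulfide isomerase, rose by 0.25 ± 0.05 and Hsp90b1, a chaperone of the HSP90 family, by 0.15 ± 0.03. Members of the set that did not pass included Calr (0.12 ± 0.04, limma adjusted p = 0.0838) and Syvn1, a ubiquitin ligase, near 0. In WT-labelled mice 1 of the 20 passed, Creld2 itself, with a median of 0.06; Hspa5 stood at 0.19 ± 0.06 (limma adjusted p = 0.138). Xbp1 and Sdf2l1 rose without an ERSE of these exact letters in their windows.

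**Figure D3:**
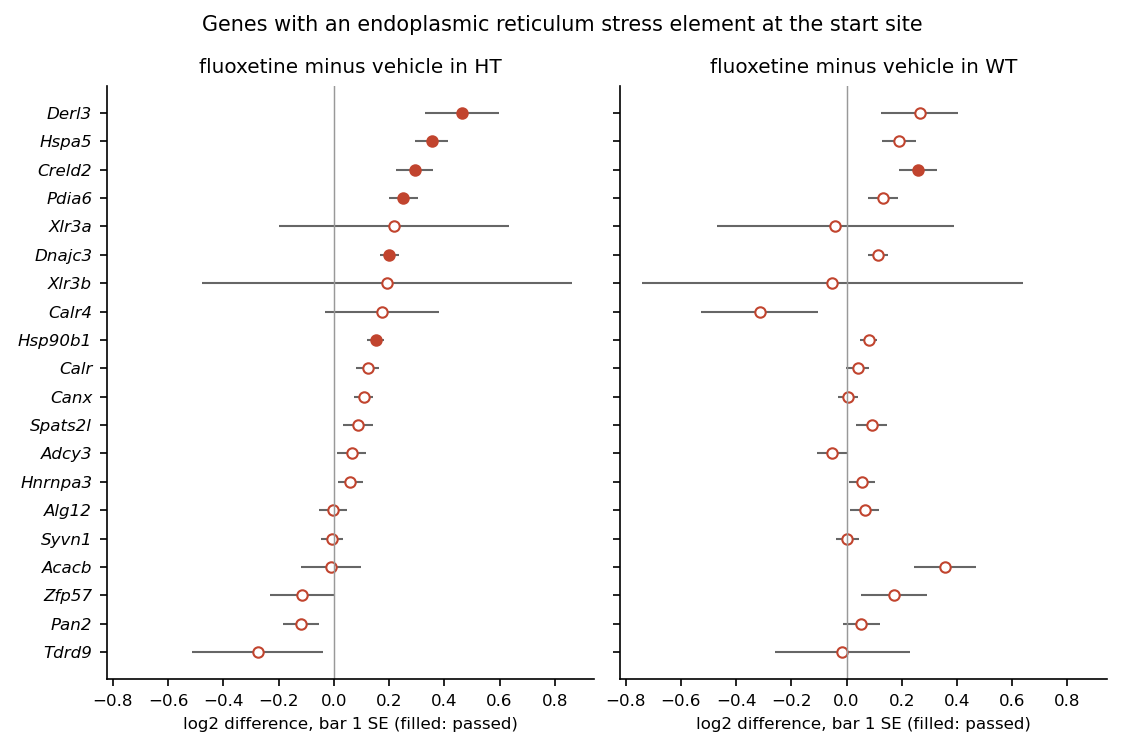
Log2 differences, fluoxetine minus vehicle, of the 20 genes with an ERSE in the promoter window that were matched by symbol and past the filter. HT-labelled mice are on the left and WT-labelled mice on the right, with bars of 1 SE and filled points for genes that passed. In HT-labelled mice 6 points are filled, all above 0, and in WT-labelled mice 1, Creld2.

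Xbp1, Creld2 and Sdf2l1 also varied together from mouse to mouse. After the mean of each of the 12 groups of arm and sex was subtracted, Pearson's r of the log2 values over 58 libraries was 0.62 between Xbp1 and Creld2 (Spearman's rho 0.60; permutation p = 4e-05 and 5e-05, drawn 100000 times within groups). Xbp1 and Sdf2l1 had r = 0.62 (rho 0.55; permutation p = 3e-05 and 6e-05), and Creld2 and Sdf2l1 had r = 0.55 (rho 0.49; permutation p = 0.00012 and 0.00065). Adjusted over the 45 pairs of members these p-values for r were 0.0009, 0.0009 and 0.0018, and for rho 0.00135, 0.00135 and 0.00975. Without the 2 libraries farthest from the median of the first-named gene of a pair, the r values were 0.60, 0.53 and 0.47. They were 0.73, 0.70 and 0.66 in the 31 libraries without Gm10221 reads, and 0.20, 0.40 and 0.27 in the 27 with them.

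**Figure D4:**
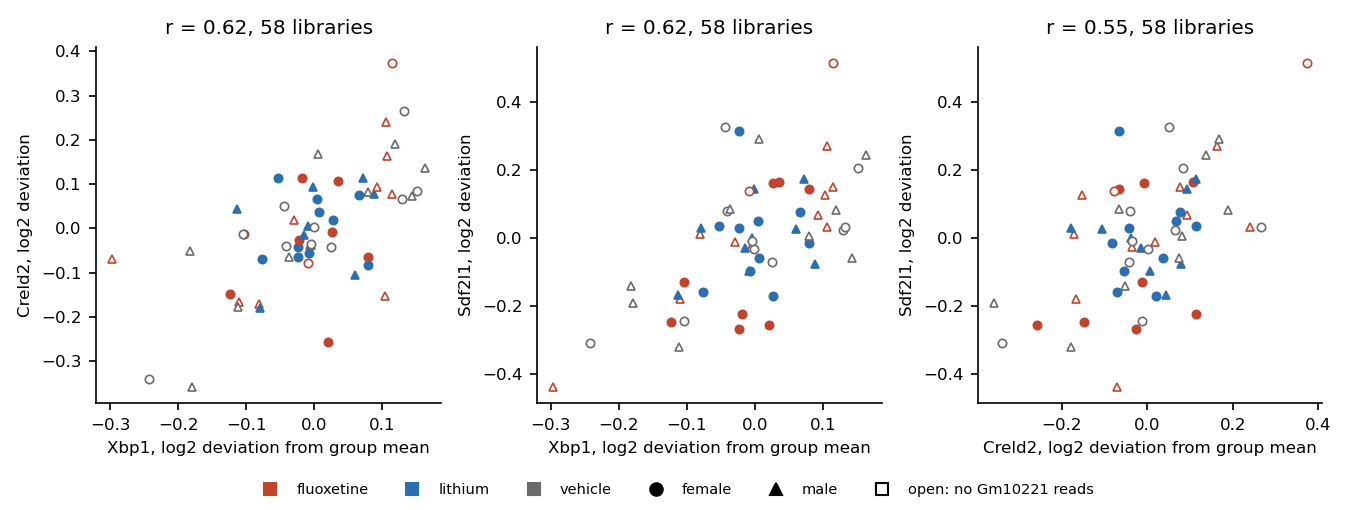
Log2 deviations of Xbp1, Creld2 and Sdf2l1 from their group means, set against each other in 58 libraries; colours give the drug, circles females, triangles males, and open symbols libraries without Gm10221 reads. The clouds slope upward with r of 0.62, 0.62 and 0.55, and the open symbols span the wider range.

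No other pair was positively related after adjustment. Atf6 and Creld2 were negatively related (r = -0.46, rho = -0.47; permutation p = 0.00158 and 0.00145, adjusted over the pairs 0.0178 and 0.0163), and r was -0.38 without the 2 farthest libraries, -0.48 without and -0.53 with Gm10221 reads. Eif2ak3 and Atf4 had r = -0.48 (rho = -0.40; permutation p = 0.00462 and 0.00886, adjusted 0.0416 and 0.0797), and r was -0.43 without the 2 farthest libraries, and -0.22 without and -0.57 with Gm10221 reads, so that it was weaker where those reads are absent. Transcripts of Atf6 and of Eif2ak3 are long (7246 and 4513 bases) and those of Creld2 and Atf4 short (1366 and 2019 bases), and libraries differed in how they measured long transcripts; the part of this in the negative relations was not tested.

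The genes most like a member were found by the same measure among all genes with a mean of at least 100 normalized reads, the 3 highest r for each. For Xbp1 they were Hspa5 (r = 0.75), Pdia6 (0.64) and Creld2 (0.62). For Creld2 they were Hspa5 (0.65), Xbp1 (0.62) and Inhbb (0.60), and for Sdf2l1 Pdia6 (0.68), Hspa5 (0.66) and Calr (0.64). The sensors had other neighbours: Pnisr, Dusp11 and Ogt for Ern1 (0.81 to 0.79), Ermp1 (0.64) and Slk (0.63) among those for Eif2ak3, and Efr3a, Zfp106 and Hapln4 for Atf6 (0.90 to 0.88). Cebpb went with Jund (0.74), Borcs6 (0.72) and Rps19bp1 (0.66), and Atf4 with 1500009C09Rik, Tubb3 and Atp5h (0.69 to 0.67). For Ddit3 they were 2410006H16Rik (0.69), Rnf5 (0.58) and Tpd52l2 (0.58), and for Trib3, the scarce one, no gene exceeded 0.48 (Tma16).

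The members called for lithium were not the same set as for fluoxetine. Whether the 2 drugs differed is a separate test, given below. Cebpb, also a factor of the acute phase response, rose 1.71-fold in HT-labelled and 1.87-fold in WT-labelled mice. Xbp1, Creld2 and Sdf2l1 did not pass, though chaperones outside the 10 members rose in HT-labelled mice, as given below. Of the 10 members 2 passed in HT-labelled mice, Cebpb higher and Ern1 lower, where 16.3% of all genes passed (8.25% higher and 8.03% lower), and 1 passed in WT-labelled mice, Cebpb, where 7.47% did (4.34% higher and 3.13% lower). The members' share is thus near the background in both genotypes.

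Cebpb had 86.1 to 149.9 normalized reads in HT lithium mice (median 105.4), against 47 to 77.3 in HT vehicle mice (median 63.8). In WT lithium mice it had 88 to 131.5 normalized reads (median 109.3), against 47.8 to 74.4 in WT vehicle mice (median 54.3). In both genotypes every lithium mouse lay above every vehicle mouse. The share of all genes whose lithium and vehicle ranges separate in this way was not counted. The log2 differences were 0.77 ± 0.11 (limma adjusted p = 1.285e-06) and 0.90 ± 0.11 (limma adjusted p = 7.33e-08), and the WT one ranked 7 by p among 17925 genes. Both passed with each library left out in turn; without HT lithium female 4 the HT value was 0.72. Of 6 microglial markers 0 passed in HT-labelled mice and 1 (C1qa, 0.18 ± 0.05) in WT-labelled mice, none was at 0, and the sums were 5775 to 7715 normalized reads in WT lithium mice and 5832 to 7387 in WT vehicle mice; their part was not tested. The difference between the genotypes was -0.13 ± 0.15 (limma adjusted p = 0.957). By sex the values were 0.68 in females and 0.86 in males of the HT-labelled mice, and 0.96 and 0.85 in WT-labelled mice.

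Cebpb was also set beside the Gm10221 reads within fluoxetine mice. Among WT fluoxetine females it had 89.1, 95.7 and 104.3 normalized reads as lowest, median and highest of the 3 libraries with those reads, and 59.1 and 72 in the 2 without. The 5 WT fluoxetine males, all without them, had 48.1 to 56.4. In HT fluoxetine mice the 5 females, all with the reads, had 74.9 to 130 (median 81.7) and the 5 males, all without, 51.1 to 93.9 (median 71.1). These ranges overlapped, and between females and males the reads cannot be told apart from sex. With a term for the reads and additive sex in the fit, the lithium differences of Cebpb were 0.34 (limma adjusted p = 0.280) in HT-labelled and 0.48 (adjusted p = 0.194) in WT-labelled mice and did not pass, while with additive sex alone they were 0.77 and 0.92 and passed (limma adjusted p = 3.35e-06 and 1.23e-07); lithium and the feature cannot be told apart. The transcript of Cebpb is short (1504 bases) and rich in G and C (67.2%). After the same adjustment for length and GC, its lithium differences were 0.60 ± 0.09 and 0.65 ± 0.09 and passed (limma adjusted p = 1.1e-05 and 6e-06).

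**Figure D5:**
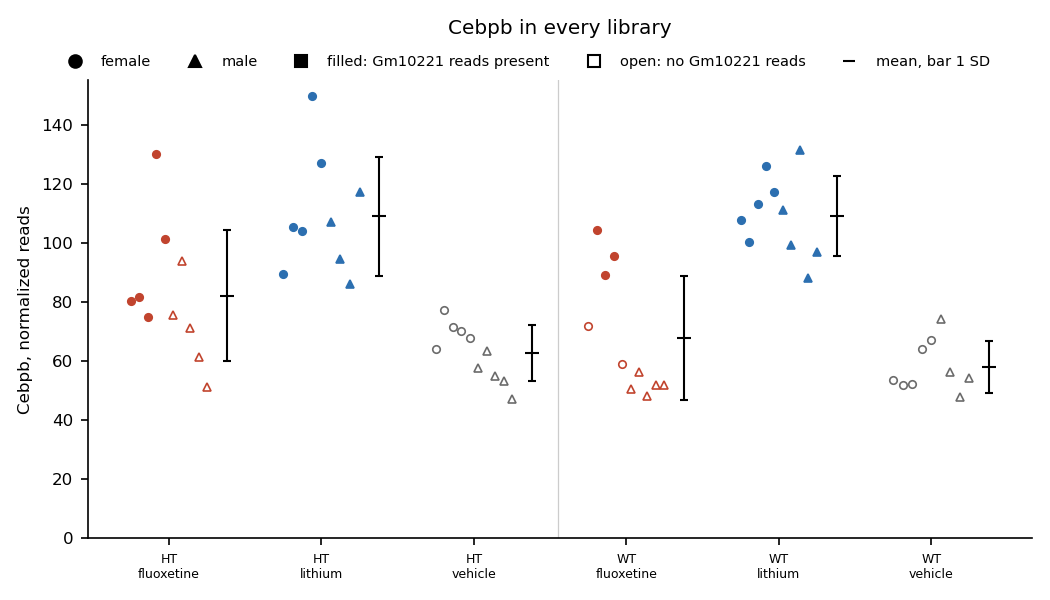
Normalized reads of Cebpb in every library by arm, with females as circles, males as triangles, and filled symbols for libraries with Gm10221 reads; bars give the mean and 1 SD. All lithium values lie at 86.1 or more and all vehicle values at 77.3 or less, and in the WT fluoxetine arm the 3 filled symbols are the highest.

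Tmem189 overlaps Cebpb on the opposite strand over 312 exonic bases. The library kit keeps the strand; whether the quantification used it was not given in the sources used here. Tmem189 differed by 0.06 ± 0.05 and 0.09 ± 0.05 between lithium and vehicle in HT-labelled and WT-labelled mice and passed in neither (limma adjusted p = 0.458 and 0.263). Similarly, Ddit3 overlaps Mars over 68 exonic bases of the opposite strand.

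Relatives of Cebpb were called in the same comparisons. Of 16 tested relatives of the sensors and bZIP factors, 4 rose and 1 fell with lithium in HT-labelled mice, where 8.25% of all genes rose and 8.03% fell, and 3 rose in WT-labelled mice, where 4.34% did. Cebpd, another acute phase factor of the family, rose by 0.54 ± 0.15 in HT-labelled and 0.66 ± 0.15 in WT-labelled mice. Creb3l1, a membrane-bound relative of Atf6, rose by 0.35 ± 0.08 and 0.40 ± 0.08, and Cebpa by 0.28 ± 0.10 and 0.33 ± 0.10. Atf5 rose by 0.24 ± 0.08 and Trib1 fell by 0.21 ± 0.07 in HT-labelled mice.

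Ern1 had 288 to 387.8 normalized reads in HT lithium mice (median 362.6), against 334 to 436.5 in HT vehicle mice (median 404.3), a difference of -0.17 ± 0.06 (limma adjusted p = 0.0426). All 9 lithium mice lay below the vehicle mean of their sex. The call held in 8 of 19 fits with 1 library left out; without HT lithium female 4 the difference was -0.14 (limma adjusted p = 0.115), and with length and GC trends removed -0.11 (adjusted p = 0.144). In WT-labelled mice the difference was -0.07 ± 0.06 (limma adjusted p = 0.585).

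Atf4 lay above the vehicle range in several lithium mice. It had 2364 to 4560 normalized reads in HT lithium mice (median 3245), where the highest is HT lithium female 4, against 2573 to 3241 in HT vehicle mice (median 2876), and the difference of 0.12 ± 0.07 did not pass (limma adjusted p = 0.270); without that library it was 0.06 (adjusted p = 0.608). In WT lithium mice it had 2464 to 4264 normalized reads (median 3322), against 2669 to 3128 in WT vehicle mice (median 2910); 7 of 10 exceeded every vehicle mouse, yet the difference of 0.19 ± 0.07 did not pass (limma adjusted p = 0.114). Xbp1 gave 0.10 ± 0.05 and 0.08 ± 0.05, Creld2 -0.09 ± 0.07 and 0.11 ± 0.07, and Sdf2l1 0.11 ± 0.09 and 0.12 ± 0.09 in HT-labelled and WT-labelled mice, none of which passed. For Xbp1, 9 of 9 HT lithium mice and 9 of 10 WT lithium mice exceeded the vehicle mean of their sex.

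Of the 25 targets of Atf4 and CHOP, 5 rose and 0 fell with lithium in HT-labelled mice, with a median of 0.08. Psph and Mthfd2, enzymes of serine synthesis and of the mitochondrial folate cycle, rose by 0.26 ± 0.07 and 0.34 ± 0.11, and the amino acid carrier subunit Slc3a2 by 0.09 ± 0.03. In WT-labelled mice 1 rose, Sesn2, an inhibitor of mTORC1 signalling, by 0.24 ± 0.06. Of the 12 synthetases 4 rose in HT-labelled mice, Gars by 0.20 ± 0.04, Eprs by 0.14 ± 0.03, Aars by 0.15 ± 0.04 and Nars by 0.16 ± 0.05, and 1, Eprs, in WT-labelled mice. Of the 20 chaperones 8 rose in HT-labelled mice, among them Pdia3 by 0.22 ± 0.03, Dnajb11 by 0.19 ± 0.03, Canx by 0.15 ± 0.04 and Calr by 0.17 ± 0.04, and 2 in WT-labelled mice, Dnajb11 and P4hb. Hspa5 was also among the 8 that rose in HT-labelled mice, by 0.24 ± 0.06 (limma adjusted p = 0.00417). Of the 20 genes with an ERSE named above, 3 rose and 1 fell with lithium in HT-labelled mice. In WT-labelled mice 0 rose and 1 fell. These counts stand beside 8.25% of all genes that rose and 8.03% that fell in HT-labelled mice. In WT-labelled mice 4.34% rose and 3.13% fell.

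Each drug was also set against the other. The comparisons with vehicle share their control mice, so each is given with its own values, and lithium minus fluoxetine uses the same treated mice again. In HT-labelled mice 4 of 10 members passed, where 6.25% of all genes did (3.19% higher and 3.06% lower): Creld2, Sdf2l1 and Atf6 lower and Cebpb higher in lithium mice. In WT-labelled mice 2 passed, Atf4 and Cebpb, both higher in lithium mice, where 9.55% of all genes did (5.29% higher and 4.26% lower). Xbp1 passed in neither genotype, at -0.14 ± 0.05 in HT-labelled and -0.02 ± 0.05 in WT-labelled mice (limma adjusted p = 0.0744 and 0.879). In WT-labelled mice Creld2 (-0.14 ± 0.07, limma adjusted p = 0.183) and Sdf2l1 (-0.12 ± 0.09, adjusted p = 0.460) did not pass. For these the drugs are not shown to differ.

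Creld2 had 218.9 to 314.2 normalized reads in HT lithium mice (median 274.1), against 288.8 to 406.4 in HT fluoxetine mice (median 351), and 7 of 9 lithium mice lay below every fluoxetine mouse. The log2 difference was -0.38 ± 0.07 (limma adjusted p = 0.000586). Females, whose libraries all carry Gm10221 reads in both of these arms, gave -0.37, which did not pass (limma adjusted p = 0.0513), and males -0.39, which did (adjusted p = 0.0301). Restricted to libraries with the reads and with additive sex, it was -0.43 (limma adjusted p = 0.0138); that fit holds lithium mice of both sexes and fluoxetine females only. Sdf2l1 had 252.4 to 298.1 normalized reads in HT lithium mice (median 277) and 269.8 to 427.2 in HT fluoxetine mice (median 323.7), with a difference of -0.31 ± 0.09 (limma adjusted p = 0.0287) and of -0.44 (adjusted p = 0.0322) in libraries with the reads. In females it was -0.44 and did not pass (limma adjusted p = 0.0798). It passed in 14 of 19 fits with 1 library left out, and without HT lithium male 3 the limma adjusted p was 0.06.

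Atf6 had 1978 to 3753 normalized reads in HT lithium mice (median 2548) and 2272 to 3751 in HT fluoxetine mice (median 3198), a difference of -0.26 ± 0.08 (limma adjusted p = 0.0446). It passed in 6 of 19 fits with 1 library left out, with differences from -0.33 to -0.20 and a limma adjusted p of up to 0.133, without HT lithium male 1. Without HT lithium female 4 it was -0.21 (limma adjusted p = 0.122). With length and GC trends removed it was -0.24 ± 0.08 and did not pass (limma adjusted p = 0.0625). Endothelial markers moved the same way, with 4 of 6 lower, where 3.06% of all genes were. None was at 0, and the summed level was 4256 to 6026 normalized reads in HT lithium mice and 5354 to 8262 in HT fluoxetine mice. The microglial marker Cx3cr1 was also lower, at -0.265 ± 0.065 (limma adjusted p = 0.00916). The part of these markers in the values of Atf6, Creld2 and Sdf2l1 was not tested.

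Atf4 had 2464 to 4264 normalized reads in WT lithium mice (median 3322), against 2440 to 2910 in WT fluoxetine mice (median 2680), and 8 of 10 lithium mice exceeded every fluoxetine mouse. The difference was 0.30 ± 0.07 (limma adjusted p = 0.00365), and 0.36 (adjusted p = 0.0137) with a term for Gm10221 reads and additive sex. It did not pass in females alone, nor in libraries with the reads, whose fluoxetine mice are all female. In HT-labelled mice it was 0.17 ± 0.07 (limma adjusted p = 0.151). Targets of Atf4 and CHOP lay in the same direction: 6 of 25 rose in lithium against fluoxetine mice labelled HT and 4 in those labelled WT, with none lower. Ddit4 rose by 0.51 ± 0.09 in HT-labelled and 0.33 ± 0.09 in WT-labelled mice and Atf3 by 1.28 ± 0.34 and 1.29 ± 0.33. Of 11 immediate early genes, 5 and 10 rose in the same comparisons, and their relation to these targets was not tested. Over all genes, 3.19% rose and 3.06% fell in HT-labelled mice, and 5.29% rose and 4.26% fell in WT-labelled mice. Sesn2 rose by 0.35 ± 0.05 in WT-labelled mice and Psph by 0.33 ± 0.07 in HT-labelled mice.

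Cebpb had a log2 difference of 0.42 ± 0.11 in HT-labelled (limma adjusted p = 0.0125) and 0.72 ± 0.10 in WT-labelled mice (limma adjusted p = 3.07e-06), lithium minus fluoxetine. In WT-labelled males, where lithium and the Gm10221 reads coincide, it was 0.9995; Tmem189, on the opposite strand, differed by 0.14 ± 0.05 (limma adjusted p = 0.0483) in WT-labelled mice of both sexes. Restricted to libraries with the reads, the differences were 0.29 (limma adjusted p = 0.446) and 0.24 (adjusted p = 0.358).

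The Tanc2 genotype was compared within each drug. No member passed, and 0% of all genes did. Among the 17925 genes, 814 had an unadjusted limma p under 0.05 under vehicle, 1114 under fluoxetine and 2006 under lithium; of the members 0, 3 and 0 did. Neither edgeR nor DESeq2 called a member; over all genes edgeR called 0 in each of the 3 comparisons and DESeq2 3, 2 and 14. The 3 members under fluoxetine were Xbp1 (0.16 ± 0.05), Sdf2l1 (0.23 ± 0.09) and Cebpb (0.28 ± 0.10), with limma adjusted p of 0.512, 0.705 and 0.681. Xbp1 had a median of 2158 normalized reads in HT fluoxetine mice, all 10 of which exceeded the WT mean of their sex, and 1935 in WT fluoxetine mice. Under vehicle the medians of Xbp1 were 1871 in HT-labelled and 1771 in WT-labelled mice, and its difference was 0.02 ± 0.05.

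For no member did the test of a difference in drug effect between the genotypes pass, and none of the 17925 genes passed (0%), with 1128 unadjusted p under 0.05 for fluoxetine and 1196 for lithium. Of the members 2 had such a p for fluoxetine, Ern1 and Xbp1, and 1 for lithium, Creld2 (-0.20 ± 0.10, limma adjusted p = 0.737). Again edgeR called 0 genes, and DESeq2 called 2 and 4, none of them a member. The call of 5 members in HT-labelled mice against 1 in WT-labelled mice is therefore not shown to be a difference between the genotypes. No member's difference in drug effect between the sexes passed; the smallest unadjusted p was 0.0032, that of Cebpb under fluoxetine in WT-labelled mice (0.51 in females and -0.15 in males), where Gm10221 reads were present in 3 of 5 treated females and in no male.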

How the data were processed

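Messenger RNA of 58 prefrontal cortices was sequenced from stranded poly(A) libraries, per the labels' protocols. The authors deposited 1 table of normalized values per gene (unit: signal), made with Salmon 0.11.2, R 3.6.0 and DESeq2 1.19.11 on GRCm38, per the submitters' processing notes; other settings were not given in the sources used here. The values of every library are whole multiples of 1 step (0.788 to 1.30), so that reads could be recovered (100% of values whole within 0.01); in 11 columns the step is near 1. Interval and p cover the spread between mice only, with litters unknown. No 2 libraries agreed within sampling noise (1653 pairs, chi-square per degree of freedom at least 3.15).

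Log2 of the deposited value plus 1 was fitted for 17925 genes (10 or more in 4 or more libraries) with limma 3.58.1 in R 4.3.3, as 1 model of 12 group means with mean-variance trend; the sexes weighed equally in each of 11 comparisons, and p was Benjamini-Hochberg adjusted over all genes, with calls under 0.05. A fold change is on this log2(value + 1) scale, which understates changes of scarce genes. The script was tested on simulated data. Alternatives were edgeR 4.0.16 and DESeq2 1.42.0 on recovered reads, TMM and quantile scaling, pseudocounts of 0.1 and 5, other filters, fits to the groups compared, to each sex, with a replicate block or a term for Gm10221 reads beside additive sex, and each library left out; fits to libraries with or without Gm10221 reads (with additive sex), additive sex alone and the removal of length and GC trends were added after seeing the data. GENCODE vM21 matched 18077 of 18088 gene IDs, and 9 members matched a promoter of the RefSeq table (GRCm38.p6). Related genes were named by rule: from each list and comparison up to 4 genes with the smallest p among those called, and for each member the 3 most alike genes, of which 1 is not reported here; genes with an ERSE, overlapping genes and Jund were named outside it. The members and lists were chosen with earlier results of these data known.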

Additional observations from a re-analysis of the deposited data

Results flagged for a closer look

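A library far from the others of its group of arm and sex was found 7 times among 120 groups of member values, where chance gives about 6 at 1 in 20. Ern1 had 314.8 normalized reads in WT lithium female 2, the nearest being 360.7, and 354.3 in WT vehicle male 2, the nearest being 373. Atf6 had 2791 in WT vehicle female 1, the nearest being 3148. Atf4 had 2895 in WT fluoxetine female 5, the nearest being 2681. Ddit3 had 281.5 in HT fluoxetine male 1, the nearest being 331.6, and 410 in WT lithium male 4, the nearest being 327.6. Trib3 had 20.1 in HT lithium female 4, the nearest being 7.06; long transcripts were low in the same library.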

How the results depend on the processing

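Of 174 counts of members called under an alternative, 151 were within 1.5 times of the reported one and 23 were lower. None was higher. The 174 include the genotype comparisons and interactions, where the reported count was 0 and could not be lower. All 23 lower counts thus fall in the drug comparisons, and the 151 overstate how stable those are. Under edgeR, DESeq2, TMM, quantile scaling, the other pseudocounts and the other filters all counts stayed within 1.5 times, as they did with sex additive to the arms (4, 1, 2, 1, 4 and 2 in the comparisons below). For fluoxetine against vehicle in HT-labelled mice, 5 members passed, and 1 with a term for Gm10221 reads beside additive sex (the term, below), 2 in females alone, 0 in males alone and 0 in libraries without those reads. For the same in WT-labelled mice, 1 passed, and 0 in the groups compared alone, with the term, in either sex alone, and in libraries without the reads. For lithium against vehicle in HT-labelled mice, 2 passed, and 1 in the groups compared alone, 1 with the replicate block, 1 in each sex alone, 1 with length and GC trends removed and 0 with the term; in WT-labelled mice, 1 passed, and 0 with the term. For lithium against fluoxetine in HT-labelled mice, 4 passed, and 2 in the groups compared alone, 1 with the term, 0 in females and 1 in males alone; in WT-labelled mice, 2 passed, and 0 in females, 1 in males alone and 0 in libraries with the reads. Fits to fewer mice have less power; apart from that the cause was not tested. With 1 library left out, the counts of members ranged from 3 to 5, 0 to 1, 1 to 2, 1 to 2, 2 to 4 and 2 to 2 in these comparisons in the order fluoxetine HT and WT, lithium HT and WT, and lithium against fluoxetine HT and WT, and were 0 for the genotypes and their interactions. The 3 came without HT vehicle male 5, the 2 for lithium in WT-labelled mice without WT lithium male 1, and the 2 for lithium against fluoxetine in HT-labelled mice without HT fluoxetine female 3 or 4 or HT lithium male 1 or 3. Of single members called, 182 of 237 values under alternatives and 238 of 292 with a library left out passed as well, and none changed sign.

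Libraries of the same replicate number share only that number: deviations from group means correlated by 0.00078 on average between libraries of the same number and by 5.07e-05 between others, and 12 of 58 libraries correlated best with their own number. The block ended the calls of Ern1 under lithium (-0.16, limma adjusted p = 0.0537) and of Atf6 in lithium against fluoxetine (-0.25, adjusted p = 0.0534) in HT-labelled mice, and changed no other call. Depth limits Trib3 most, whose highest library had 20.1 normalized reads.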

Other observations

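Jund, the gene most like Cebpb across libraries and a subunit of the AP-1 factor, rose with lithium by 0.42 ± 0.07 in HT-labelled mice (limma adjusted p = 3.81e-05) and by 0.57 ± 0.07 in WT-labelled mice (adjusted p = 2.28e-07). With fluoxetine it rose by 0.25 ± 0.07 in HT-labelled mice (limma adjusted p = 0.0316) and stood at 0.07 ± 0.07 in WT-labelled mice (adjusted p = 0.844). It was looked at because of its likeness to Cebpb, and like Cebpb it has not been told apart from the Gm10221 reads.

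Partners of the sensors and genes of eIF2 phosphorylation were looked at as well. Of 10 partners and processing enzymes, 2 fell with lithium in HT-labelled mice: Mbtps1, the Golgi protease that cleaves ATF6 first, by 0.10 ± 0.03 on the log2 scale, and Traf2, an adaptor of IRE1, by 0.20 ± 0.06. Of 11 genes of eIF2 phosphorylation and its reversal, Eif2s1, the subunit that PERK phosphorylates, rose by 0.14 ± 0.04 and Eif2ak4, the amino acid sensing kinase, fell by 0.14 ± 0.04 in the same comparison, where 16.3% of all genes passed, so that both counts are near the background. None of the genes of either list passed for fluoxetine in either genotype or for lithium in WT-labelled mice.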
